A study of Mus musculus with 2 samples.

Results

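The genes described here are 9 members of the ETS family of transcription factors, Etv1, Etv4, Etv5, Ets1, Ets2, Gabpa, Elk3, Elf2 and Erg, each taken as its row of the 56982 features that both count matrices hold. All 9 rows were present in both matrices and all 9 reached 5 CPM (counts per 1000000 UMIs, the unique molecular identifiers that count transcripts) in at least one cell class of each library. The data are droplet single-cell RNA counts of the hindlimb of mouse embryos of the FVB strain at embryonic day E11.5. The dual-enSERT-1 library has the genotype H11 ZRS-mCherry/ZRS404G>A-eGFP, in which mCherry reports the ZRS and eGFP the ZRS with the 404G>A variant, both at the H11 insertion site. The dual-enSERT-2 library carries B-ZRS-mCherry, then SI, then ZRS404G>A-eGFP-B at H11, with B and SI not spelled out in the labels. Each genotype is 1 embryo and 1 library, and both carry both reporters, so there is no library without the variant and no replicate. No test was run, and intervals below are exact 95% intervals for counting error only.

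ETS factors share a DNA-binding domain that recognises a GGAA core, and they differ in the flanking bases they prefer, in their partners and in where they are made. The ZRS is the distant limb enhancer of Shh, which is active in the posterior margin of the limb bud, the zone of polarizing activity. In mouse limb buds ETS1 and GABPA have been described as activators at ETS sites of the ZRS, and ETV4 and ETV5, which are induced by fibroblast growth factor (FGF) signalling from the apical ectodermal ridge, as repressors of Shh outside its posterior domain. Human and mouse point variants that create ETS sites in the ZRS are known to extend Shh expression to the anterior limb.

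On GRCm39, Etv1 spans chr12:38828851-38920483 on the plus strand, Etv4 chr11:101660568-101676197 on the minus strand and Etv5 chr16:22200052-22259662 on the minus strand. Ets1 spans chr9:32547517-32669116 and Ets2 chr16:95502847-95522095, both on the plus strand, with Erg at chr16:95160028-95387452 on the minus strand. Gabpa spans chr16:84631140-84660672 on the plus strand, Elk3 chr10:93083276-93147056 and Elf2 chr3:51160141-51248242, both on the minus strand. In GENCODE M39, 7 of the 9 overlap another annotated gene, 3 of them (Ets1, Elf2 and Erg) one on the same strand, and whether reads were counted by strand is not given in the sources used here. Gabpa overlaps the opposite-strand gene Atp5pf and Elk3 overlaps Cdk17, so reads there cannot be assigned with certainty.

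The bases before 1 listed start of each of 3 genes are shown because Etv1 set the ectoderm apart and Elk3 and Erg set the endothelium apart in what follows. RefSeq's GRCm38.p6 promoter table held 12 windows for 7 of the 9 genes, and the sequences below are from the first window it lists for each gene, placed on GRCm39 by exact match and ended where an annotated exon begins. Capitals mark GGAA, or TTCC for the other strand, the core that ETS factors recognise.
Etv1, chr12:38829831-38830080, plus strand: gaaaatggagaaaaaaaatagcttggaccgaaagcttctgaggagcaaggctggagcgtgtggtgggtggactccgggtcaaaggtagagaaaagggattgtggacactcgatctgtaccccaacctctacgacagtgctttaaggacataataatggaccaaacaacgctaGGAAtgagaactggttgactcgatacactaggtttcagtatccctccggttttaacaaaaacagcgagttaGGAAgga
Elk3, chr10:93147057-93147271, minus strand: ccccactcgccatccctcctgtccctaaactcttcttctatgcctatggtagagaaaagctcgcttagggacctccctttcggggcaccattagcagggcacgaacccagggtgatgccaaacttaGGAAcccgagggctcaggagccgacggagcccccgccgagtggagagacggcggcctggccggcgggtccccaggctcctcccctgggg
Erg, chr16:95387453-95387702, minus strand: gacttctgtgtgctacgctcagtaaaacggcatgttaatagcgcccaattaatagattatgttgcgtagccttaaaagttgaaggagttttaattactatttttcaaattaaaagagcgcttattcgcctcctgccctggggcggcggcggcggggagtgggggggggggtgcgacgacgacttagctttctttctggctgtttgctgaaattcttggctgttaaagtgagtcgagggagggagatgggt
The 250 bases printed for Etv1 hold 2 matches on either strand, the 215 bases for Elk3 hold 1 and the 250 bases for Erg hold 0. The Etv1 window lies inside the span given above for the gene and not before its first base, and the other 2 windows of Erg, not printed, hold 4 and 2 matches. Of all 32851 windows in the table, 93.4% hold at least 1 match in the 250 bases before the start, with a median of 3 matches, so a core by itself does not set a promoter apart. These are matches of letters in a short window, not sites.

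After filtering, 16041 cells of dual-enSERT-1 (median 14000 UMIs) and 6472 cells of dual-enSERT-2 (median 25841.5 UMIs) remained, and 49 barcodes occurred in both libraries. Clusters, made without the ETS genes, Shh and the reporters, were named from marker genes as endothelial-like (202 cells of dual-enSERT-1 against 104 of dual-enSERT-2), macrophage-like (63 and 56), erythroid-like (245 and 1637), ectoderm-like (433 and 181), muscle-like (549 and 68) and mesenchyme-like (14549 and 4426). The 8 mesenchyme markers summed to 2316 CPM in mesenchyme-like cells of dual-enSERT-1 and 2099 CPM in those of dual-enSERT-2, against 125 to 376 CPM in the endothelial-, macrophage-, ectoderm- and muscle-like classes. The macrophage-like cluster of dual-enSERT-2 was led by Mpo, a granule gene of myeloid precursors. A pooled level does not tell fewer cells with a transcript from less transcript per cell; shares of cells with a UMI are given beside levels where both were read.

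Among the cell classes, the 9 genes held an endothelial group (Ets1, Elk3, Erg and, less, Ets2) and an ectodermal pair (Etv1 and Etv4). Outside these groups were Etv5, Elf2 and Gabpa, the last near even over the classes other than erythroid-like. Levels are pooled CPM and are compared within a gene, not between genes. A gene counts as past the fold where its log2 ratio, with 1 CPM added to both levels, is at least 0.58 in size and at least one level is 5 CPM or more.

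Ets1, a factor of endothelial and lymphoid cells, stood at 391 CPM (375 to 408) in endothelial-like cells, 34.4 CPM (33.7 to 35.2) in mesenchyme-like cells, 19.0 CPM in muscle-like, 8.75 CPM in macrophage-like, 2.64 CPM in ectoderm-like and 1.22 CPM in erythroid-like cells of dual-enSERT-1. In dual-enSERT-2 it stood at 389 CPM in endothelial-like, 122 CPM in muscle-like, 30.1 CPM in mesenchyme-like, 22.5 CPM in macrophage-like and 2.09 CPM in ectoderm-like cells. At 5000 UMIs per cell, an Ets1 UMI was found in 81.3% of endothelial-like cells and 15.6% of mesenchyme-like cells of dual-enSERT-1, and in 80.3% and 13.4% of those of dual-enSERT-2. Endothelial-like cells led in both libraries, and the place of the muscle-like cells in the order was the one that differed between them.

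Erg, which maintains endothelial identity, had 117 CPM (109 to 127) in endothelial-like cells and 6.69 CPM (6.35 to 7.05) in mesenchyme-like cells of dual-enSERT-1. In dual-enSERT-2 it had 89.5 CPM in endothelial-like cells and 4.71 CPM in mesenchyme-like cells. In ectoderm-like cells Erg had 1 UMI in dual-enSERT-1 and none in dual-enSERT-2, where a count of 0 allows up to 0.785 CPM. The ratio of endothelial-like over mesenchyme-like cells was 17.5 (16.0 to 19.2) in dual-enSERT-1 and 19.0 (16.2 to 22.3) in dual-enSERT-2.

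Elk3, a partner of serum response factor that acts largely as a repressor, was at 423 CPM (407 to 441) in endothelial-like cells, 111 CPM in mesenchyme-like, 79.5 CPM in macrophage-like, 54.9 CPM in muscle-like and 33.4 CPM in ectoderm-like cells of dual-enSERT-1. The same order from endothelial-like to mesenchyme-like cells held in dual-enSERT-2, at 336 CPM and 103 CPM, while its macrophage-like cells at 78.0 CPM and muscle-like cells at 94.4 CPM changed places and ectoderm-like cells were at 17.8 CPM. Ets2, a target of mitogen-activated kinase signalling downstream of FGF, had 194 CPM in endothelial-like and 82.0 CPM in mesenchyme-like cells of dual-enSERT-1, and 138 CPM in endothelial-like and 99.96 CPM in mesenchyme-like cells of dual-enSERT-2. Its lowest levels outside the erythroid-like class were in muscle-like cells, at 11.1 CPM in dual-enSERT-1 and 11.6 CPM in dual-enSERT-2.

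Endothelial-like cells exceeded mesenchyme-like cells past the fold for 4 of the 9 genes in dual-enSERT-1 (Ets1, Ets2, Elk3 and Erg), where 19.4% of all measured genes did so, and for 3 in dual-enSERT-2 (Ets1, Elk3 and Erg), where 20.7% did. Erg and Ets1 had log2 ratios of 3.94 and 3.47 in dual-enSERT-1 and of 3.99 and 3.65 in dual-enSERT-2. Etv4 and Etv5 were lower past the fold in endothelial-like cells of both libraries, as were 30.9% of all measured genes of dual-enSERT-1 and 28.1% of those of dual-enSERT-2. Etv5 had a log2 ratio of -1.51 in dual-enSERT-1, against one of -2.17 in dual-enSERT-2. In macrophage-like cells Etv4 and Ets2 were lower past the fold in both libraries, as were 33.5% of all measured genes of dual-enSERT-1 and 25.1% of those of dual-enSERT-2. In muscle-like cells Ets2 alone was, with a log2 ratio of -2.78 in dual-enSERT-1 and one of -3.00 in dual-enSERT-2, where 14.4% and 10.6% of all measured genes were lower.

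Etv1, Etv4 and Etv5 form the PEA3 group, FGF-responsive factors with nearly the same DNA-binding domain. Etv1 had 91.5 CPM (84.2 to 99.2) in ectoderm-like cells and 16.8 CPM (16.3 to 17.4) in mesenchyme-like cells of dual-enSERT-1, against 69.4 CPM in ectoderm-like and 11.3 CPM in mesenchyme-like cells of dual-enSERT-2. Its ratio of ectoderm-like over mesenchyme-like cells was 5.43 (4.97 to 5.93) in dual-enSERT-1 and 6.11 (5.34 to 6.99) in dual-enSERT-2. Ectoderm-like cells led for Etv1 in both libraries, and 33.0% of those of dual-enSERT-1 and 34.4% of those of dual-enSERT-2 held an Etv1 UMI at 5000 UMIs.

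Etv4 had 77.3 CPM in ectoderm-like and 34.5 CPM in mesenchyme-like cells of dual-enSERT-1, and 79.6 CPM in ectoderm-like and 50.1 CPM in mesenchyme-like cells of dual-enSERT-2. Etv5 did not separate the ectoderm from the mesenchyme past the fold, with 48.9 CPM in ectoderm-like and 42.4 CPM in mesenchyme-like cells of dual-enSERT-1 and 57.8 CPM in ectoderm-like and 67.0 CPM in mesenchyme-like cells of dual-enSERT-2. In erythroid-like cells, taken here as a rough gauge of free RNA, Etv4 was at 0.408 CPM in dual-enSERT-1 and 0.858 CPM in dual-enSERT-2. Ets1, Ets2 and Elk3 were lower past the fold in ectoderm-like cells of both libraries, as were 16.9% of all measured genes of dual-enSERT-1 and 13.3% of those of dual-enSERT-2. Ectoderm-like cells were higher past the fold for 2 of the 9 genes in each library, Etv1 and Etv4, as were 15.2% of all measured genes of dual-enSERT-1 and 17.7% of those of dual-enSERT-2.

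Gabpa, the DNA-binding subunit of GA-binding protein and a broadly used regulator of basic cell functions, was the most even of the 9. It ranged between 23.5 and 28.4 CPM over the 5 classes other than erythroid-like in dual-enSERT-1, and between 24.6 and 30.1 CPM in dual-enSERT-2. The intervals of these classes overlapped, and no order among them is given. Elf2, a widely made factor of the ELF group, ranged between 80.5 CPM (muscle-like) and 127 CPM (endothelial-like) in dual-enSERT-1 and between 67.5 CPM (ectoderm-like) and 137 CPM (macrophage-like) in dual-enSERT-2. Elf2 was higher past the fold in macrophage-like cells of dual-enSERT-2 (log2 ratio 0.77 over 79.5 CPM in mesenchyme-like cells), as were 24.7% of all measured genes, and not in those of dual-enSERT-1 (log2 ratio -0.09), where 22.3% were. Erythroid-like cells were lower than mesenchyme-like cells for all 9 genes in both libraries, past the fold for 9 in dual-enSERT-1, where 91.1% of all measured genes were, and for 7 in dual-enSERT-2, where 86.2% were. Elf2 was the least so, at 41.8 CPM in dual-enSERT-1 and 59.8 CPM in dual-enSERT-2, and with globin and mitochondrial genes left out of the total its log2 ratio in dual-enSERT-1 turned to 0.36.

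**Figure D1:**
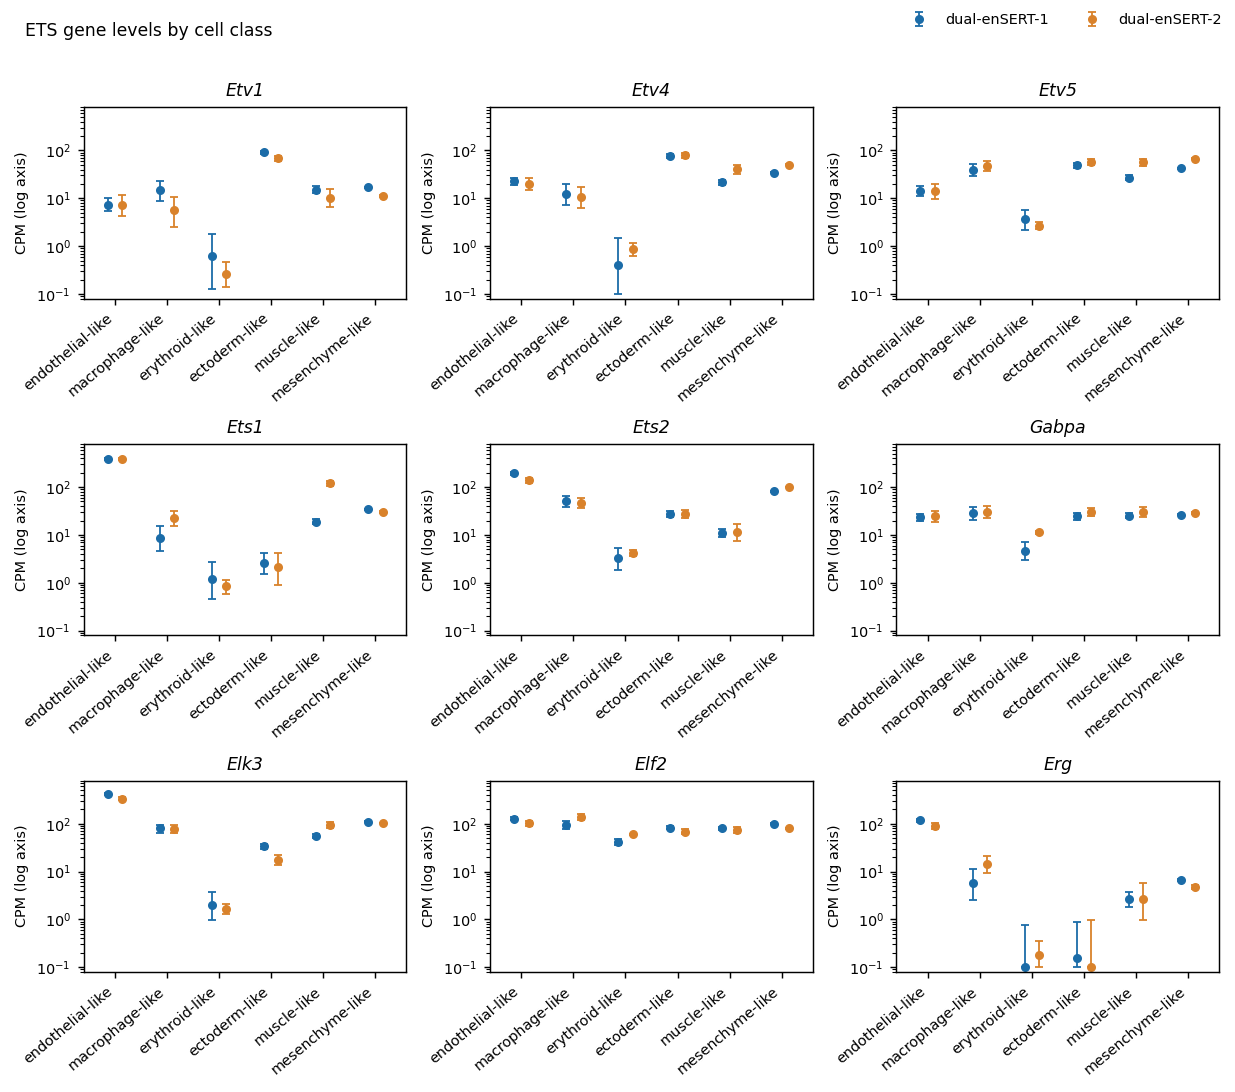
Pooled level of each ETS gene in 6 cell classes of the 2 libraries, in CPM on a log axis, with exact 95% Poisson intervals for counting error; levels under 0.1 CPM are drawn at 0.1. Ets1, Elk3 and Erg are highest in endothelial-like cells and Etv1 in ectoderm-like cells of both libraries, and Ets1 in muscle-like cells is 19.0 CPM in dual-enSERT-1 and 122 CPM in dual-enSERT-2.

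Within the mesenchyme, Etv4 and Ets2 were higher and Erg lower in distal cells of both libraries. Distal cells are mesenchyme-like cells with a UMI of Hoxa13 or Hoxd13, the genes of the future foot, and proximal cells have a UMI of Meis1 or Meis2, genes of the upper limb, and none of Hoxa13 or Hoxd13, all read at 5000 UMIs per cell. There were 4312 distal and 3349 proximal cells in dual-enSERT-1, and 661 distal and 1554 proximal cells in dual-enSERT-2. Past the fold in both libraries were 3 of the 9 genes, Etv4 and Ets2 (higher distally) and Erg (lower distally), where 14.5% of all measured genes of dual-enSERT-1 and 6.92% of those of dual-enSERT-2 passed in either direction.

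Etv4 had 57.3 CPM in distal and 13.3 CPM in proximal cells of dual-enSERT-1, a ratio of 4.31 (3.96 to 4.69). It had 62.8 CPM in distal and 38.1 CPM in proximal cells of dual-enSERT-2, a ratio of 1.65 (1.53 to 1.78). The distal levels of the libraries lay close to each other, and the proximal levels were far apart. Etv5 had 64.6 CPM in distal and 24.2 CPM in proximal cells of dual-enSERT-1, and 74.5 CPM in distal and 55.0 CPM in proximal cells of dual-enSERT-2, so that its log2 ratio of 1.38 in the first library passed the fold and that of 0.43 in the other did not.

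Ets2 had 111 CPM in distal and 51.3 CPM in proximal cells of dual-enSERT-1, and 146 CPM in distal and 85.5 CPM in proximal cells of dual-enSERT-2, with ratios of 2.16 (2.06 to 2.26) and 1.71 (1.63 to 1.80). Erg had 4.63 CPM in distal and 9.19 CPM in proximal cells of dual-enSERT-1, and 3.78 CPM in distal and 6.30 CPM in proximal cells of dual-enSERT-2. Ets1 was lower distally in both, at 29.4 CPM in distal and 39.9 CPM in proximal cells of dual-enSERT-1 and 20.8 CPM in distal and 38.9 CPM in proximal cells of dual-enSERT-2, past the fold in dual-enSERT-2 alone. The 10 endothelial markers, of the class with the highest levels of Erg and Ets1, summed to 21.6 CPM in distal and 20.7 CPM in proximal cells of dual-enSERT-1. In dual-enSERT-2 they summed to 22.9 CPM in distal and 21.1 CPM in proximal cells. The part of endothelial RNA in the differences of Erg and Ets1 was not tested. Gabpa, Elk3, Elf2 and Etv1 stayed within a log2 ratio of 0.37 in size in both libraries.

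Genes of the FGF response list were higher in distal cells beside Etv4 and Etv5. Of its 14 genes, 12 were measured in dual-enSERT-1, with 6 higher and 0 lower past the fold, where 5.35% of all measured genes were higher and 9.17% lower. In dual-enSERT-2, 11 were measured, with 4 higher and 0 lower, where 2.89% of all measured genes were higher and 4.03% lower. The medians over its measured genes were 0.56 and 0.39 on the log2 scale, against -0.01 over all measured genes in each library. Those past the fold in both were Dusp6, Spry1, Spry2 and Spry4, feedback inhibitors of the pathway. Spry4 had 34.7 CPM in distal and 3.14 CPM in proximal cells of dual-enSERT-1 and 49.3 CPM in distal and 13.2 CPM in proximal cells of dual-enSERT-2. Of the 17 other ETS family genes, of which dual-enSERT-1 measured 7 and dual-enSERT-2 measured 8, Fli1, a close relative of Erg, was the one past the fold in both, at 101 CPM in distal and 243 CPM in proximal cells of dual-enSERT-1 and 64.1 CPM in distal and 199 CPM in proximal cells of dual-enSERT-2. None of the 9 genes of GABP subunits and ETS partners passed in both.

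Across the anterior-posterior axis Ets2 was lower anteriorly in both libraries, and Etv5 was higher anteriorly in both once distal cells were set aside. A cell's index counts which of Tbx2, Hand2, Hoxd12 and Hoxd11, genes of the posterior limb, have a UMI in it and takes off the count of anterior genes that do (Pax9, Alx1 and Alx4 among them), with -1 or lower anterior and 1 or higher posterior. There were 676 anterior and 8871 posterior cells in dual-enSERT-1, and 276 anterior and 2594 posterior cells in dual-enSERT-2. Ets2 had 61.7 CPM in anterior and 92.8 CPM in posterior cells of dual-enSERT-1, and 70.7 CPM in anterior and 114 CPM in posterior cells of dual-enSERT-2. It was the 1 gene of the 9 past the fold in both libraries, which 5.21% of all measured genes of dual-enSERT-1 and 5.27% of those of dual-enSERT-2 passed, and its log2 ratio in dual-enSERT-1, -0.58, lay at the threshold. Under the alternative settings it ranged between -0.61 and -0.42 in dual-enSERT-1 and between -1.02 and -0.53 in dual-enSERT-2, always lower anteriorly and not always past the fold. Within the distal cells Ets2 had 74.5 CPM in anterior and 115 CPM in posterior cells of dual-enSERT-1, and 64.0 CPM in anterior and 152 CPM in posterior cells of dual-enSERT-2, where 12.4% and 32.3% of all measured genes passed the fold and the anterior cells numbered 86 and 12.

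Anterior and posterior cells also differed in how many were distal, 12.7% of anterior and 41.9% of posterior cells in dual-enSERT-1 and 4.35% of anterior and 21.6% of posterior cells in dual-enSERT-2. Among cells that are not distal, Etv5 had 44.9 CPM in anterior and 26.9 CPM in posterior cells of dual-enSERT-1, a ratio of 1.67 (1.498 to 1.86), and 94.1 CPM in anterior and 59.4 CPM in posterior cells of dual-enSERT-2, a ratio of 1.59 (1.46 to 1.72). Etv4 there had 31.9 CPM in anterior and 19.6 CPM in posterior cells of dual-enSERT-1, and 63.5 CPM in anterior and 44.2 CPM in posterior cells of dual-enSERT-2. Etv1 had 22.5 CPM in anterior and 13.9 CPM in posterior cells of dual-enSERT-1, and 14.8 CPM in anterior and 10.8 CPM in posterior cells of dual-enSERT-2. Ets2 there had 59.6 CPM in anterior and 73.6 CPM in posterior cells of dual-enSERT-1, and 71.0 CPM in anterior and 103 CPM in posterior cells of dual-enSERT-2, short of the fold in both. Etv5 alone was past the fold in both libraries there, with Etv1, Etv4 and Erg past it in dual-enSERT-1 alone, where 5.31% of all measured genes of dual-enSERT-1 and 5.2% of those of dual-enSERT-2 passed.

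Ets1 outside the distal cells ran the other way, at 30.3 CPM in anterior and 40.1 CPM in posterior cells of dual-enSERT-1 and 23.6 CPM in anterior and 33.2 CPM in posterior cells of dual-enSERT-2, short of the fold in both. Gabpa there had 26.1 CPM in anterior and 25.7 CPM in posterior cells of dual-enSERT-1 and 32.4 CPM in anterior and 28.4 CPM in posterior cells of dual-enSERT-2. Erg had 11.1 CPM in anterior and 6.88 CPM in posterior cells of dual-enSERT-1, and 5.65 CPM in anterior and 5.37 CPM in posterior cells of dual-enSERT-2. Over all positions, of the 12 Shh pathway genes, all of them measured, 4 were higher and 5 lower anteriorly past the fold in dual-enSERT-1, where 2.38% of all measured genes were higher and 2.83% lower. In dual-enSERT-2, 5 were higher and 5 lower, where 3.1% of all measured genes were higher and 2.17% lower. Hand2 is on this list and is also a posterior gene of the index, so its direction was set by how the cells were grouped. Ptch1, the Shh receptor and a target of the pathway, stood at 30.9 CPM in anterior and 180.0 CPM in posterior cells of dual-enSERT-1 and at 35.5 CPM in anterior and 181 CPM in posterior cells of dual-enSERT-2.

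**Figure D2:**
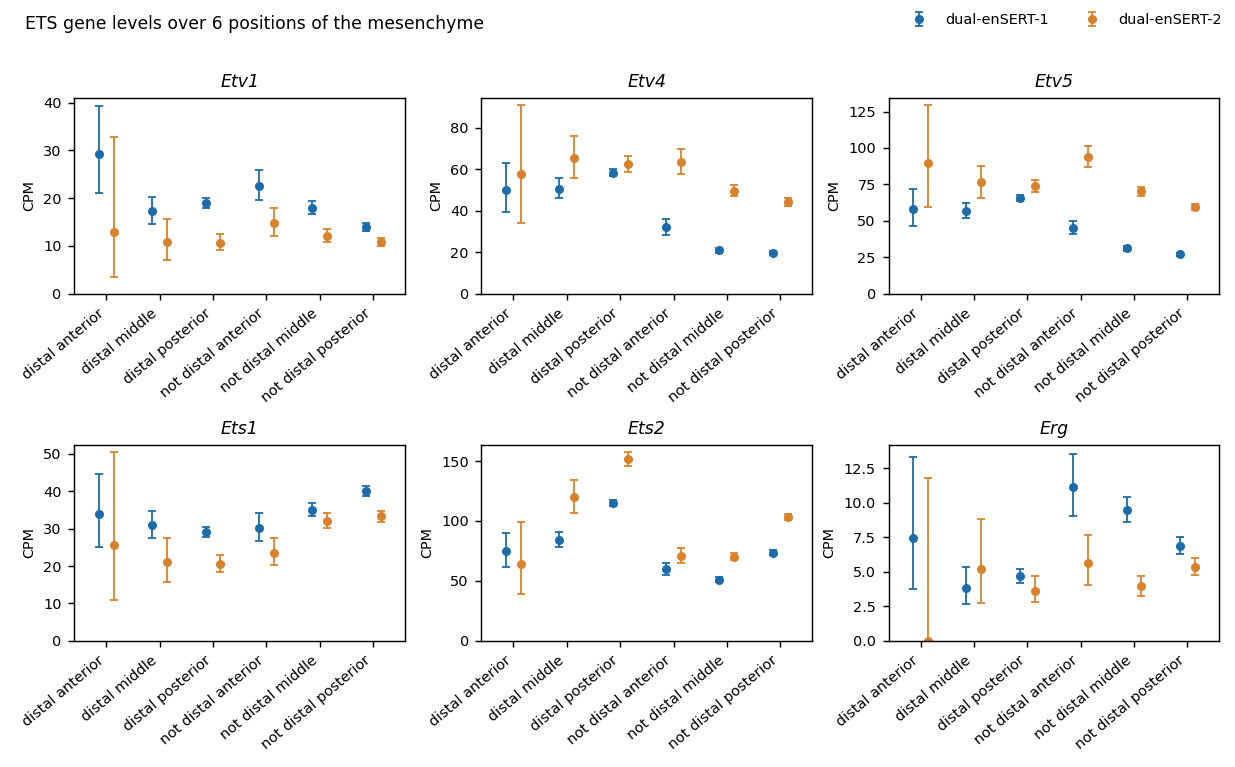
Pooled CPM of 6 ETS genes in mesenchyme-like cells at 6 positions, distal or not by anterior, middle and posterior, with exact 95% Poisson intervals for counting error; distal anterior cells of dual-enSERT-2 number 12. Etv4 and Etv5 of dual-enSERT-1 are lower outside the distal cells, while in dual-enSERT-2 they are at least as high in anterior cells outside the distal ones (63.5 and 94.1 CPM) as in distal posterior cells (62.5 and 73.9 CPM), and Ets2 is highest in distal posterior cells of both libraries.

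Over the 6 positions of both libraries, each library centred on its own mean (12 points, which share libraries, depth and cells that differ in number), Etv4 and Etv5 were each other's closest gene, with a Pearson r of 0.95 between their log2 levels, 0.99 over the 6 positions of dual-enSERT-1 and 0.74 over those of dual-enSERT-2. The next closest to Etv5 were Lhx2, a distal regulator of the limb mesenchyme, and Grip1, with r of 0.95 and 0.98 in dual-enSERT-2. Those next closest to Etv4, Fkbp1a and Mycn, had r of 0.98 and 0.97 in dual-enSERT-1 and of 0.59 and 0.58 in dual-enSERT-2. Etv1 was closest to Wnk3, Tbl1xr1 and Ppp1cb (r of 0.92, 0.91 and 0.90), and Ets1 to Ssbp2, Tns3 and Rasl11b (0.93, 0.85 and 0.83). Ets2 was closest to Srsf11, Macroh2a1 and 2410004B18Rik, all at 0.96 or above. For Gabpa, Elk3 and Elf2 the likeness came mostly from dual-enSERT-2: their closest genes (Usp37, Ankrd28 and Ttc4) had r of 0.99, 0.93 and 0.998 in that library and 0.75, 0.56 and 0.76 in dual-enSERT-1. The distal anterior position of dual-enSERT-2 holds 12 cells and counts as much in r as the other positions. Erg was under 5 CPM in dual-enSERT-2 and was not ranked. The closest genes are the highest of 6589 genes compared, and high r was common. The 95th percentile of r over these genes was lowest for Ets1, at 0.51, and highest for Elf2, at 0.90, with 0.79 for Ets2.

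At the level of single cells, both Etv4 and Etv5 UMIs were found in 330 of 4312 distal cells of dual-enSERT-1, 7.65% (6.88 to 8.49), where the product of their separate shares is 6.31%. In dual-enSERT-2 they were found together in 64 of 661 distal cells, 9.68% (7.54 to 12.2), where the product is 7.85%. The observed share was thus 1.21 and 1.23 times the product in distal cells, and 1.70 and 1.09 times outside them. Among distal cells the pair Etv4 and Ets2 was at 1.01 times the product in dual-enSERT-1 and at 1.03 times it in dual-enSERT-2, and the pair Ets2 and Elk3 at 1.03 and 0.99 times. The part of position and depth within these groups was not tested.

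Distal posterior cells with a Shh UMI differed from those without one in Etv1. A Shh UMI was held by 2.25% of mesenchyme-like, 0.602% of endothelial-like and 0 of 245 erythroid-like cells of dual-enSERT-1 at 5000 UMIs, and by 2.67% of mesenchyme-like, 0 of 71 endothelial-like and 0.245% of erythroid-like cells of dual-enSERT-2. A cell without one at this depth is not shown to lack Shh: at full depth Shh had 201 CPM in the cells with a UMI and 6.81 CPM in those without of dual-enSERT-1, and 174 CPM in the cells with a UMI and 12.5 CPM in those without of dual-enSERT-2. Of the distal posterior cells, 218 held a Shh UMI and 3501 did not in dual-enSERT-1, and 49 held one and 512 did not in dual-enSERT-2. Etv1 had 34.0 CPM in Shh cells and 17.9 CPM in cells without Shh of dual-enSERT-1, a ratio of 1.90 (1.58 to 2.27), and 21.5 CPM in Shh cells and 9.57 CPM in cells without Shh of dual-enSERT-2, a ratio of 2.24 (1.49 to 3.29) that rests on 33 and 143 UMIs. It was the 1 gene past the fold in both libraries of the 8 measured, Erg being under 5 CPM, where 6.4% of all measured genes of dual-enSERT-1 and 10.6% of those of dual-enSERT-2 were. Under the alternative settings the log2 ratio of Etv1 lay between 0.66 and 1.16 in dual-enSERT-1 and between 0.35 and 1.31 in dual-enSERT-2, where it was short of the fold with levels taken from the thinned UMIs.

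Ets2 was higher in Shh cells short of the fold, at 150 CPM in Shh cells and 113 CPM in cells without Shh of dual-enSERT-1 and 203 CPM in Shh cells and 146 CPM in cells without Shh of dual-enSERT-2. The factors described as acting on the ZRS stayed short of the fold. Etv4 had 67.7 CPM in Shh cells and 57.7 CPM in cells without Shh of dual-enSERT-1, and 69.6 CPM in Shh cells and 61.8 CPM in cells without Shh of dual-enSERT-2. Etv5 had ratios of 1.04 (0.916 to 1.17) in dual-enSERT-1 and 1.01 (0.829 to 1.23) in dual-enSERT-2, Ets1 of 0.893 (0.727 to 1.09) in dual-enSERT-1 and 1.04 (0.706 to 1.499) in dual-enSERT-2, and Gabpa of 1.09 (0.902 to 1.31) in dual-enSERT-1 and 1.26 (0.934 to 1.68) in dual-enSERT-2. In this comparison 2.55% of all measured genes were higher and 3.85% lower past the fold in dual-enSERT-1, and 5.02% higher and 5.6% lower in dual-enSERT-2. Over the list of 12 Shh pathway genes, all measured, 0 were higher and 4 lower in dual-enSERT-1, and 0 higher and 5 lower in dual-enSERT-2, among them Gli2, Boc and Gas1 in both. Of the FGF response list 4 of 13 measured genes were higher and 1 lower in dual-enSERT-1, and 1 of 11 was higher and 0 lower in dual-enSERT-2. Lhx2 was the one higher in both, with 267 CPM in Shh cells and 144 CPM in cells without Shh of dual-enSERT-1 and 291 CPM in Shh cells and 135 CPM in cells without Shh of dual-enSERT-2.

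Without the limit to distal posterior cells the Shh contrast takes in position as well, since 75.6% of Shh cells and 31.8% of the other mesenchyme-like cells of dual-enSERT-1 were distal. There Etv4 had 70.2 CPM in Shh cells and 33.5 CPM in the others of dual-enSERT-1, and 67.0 CPM in Shh cells and 49.6 CPM in the others of dual-enSERT-2. Etv1 and Ets2 were the genes past the fold in both libraries over all mesenchyme-like cells, with log2 ratios of 0.94 (Etv1) and 0.86 (Ets2) in dual-enSERT-1 and of 1.30 (Etv1) and 0.95 (Ets2) in dual-enSERT-2, where 11% and 9.46% of all measured genes passed.

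In the ectoderm, cells of the apical ectodermal ridge, the source of limb FGFs, were taken as ectoderm-like cells with an Fgf8 UMI: 71 against 250 without one in dual-enSERT-1, and 61 against 90 in dual-enSERT-2. Etv1 was lower in the ridge cells, at 61.2 CPM in Fgf8 cells and 110 CPM in cells without Fgf8 of dual-enSERT-1 and at 39.4 CPM in Fgf8 cells and 96.5 CPM in cells without Fgf8 of dual-enSERT-2. The ratios were 0.559 (0.451 to 0.687) and 0.409 (0.306 to 0.540). Ets2 had 36.5 CPM in Fgf8 cells and 23.1 CPM in cells without Fgf8 of dual-enSERT-1, and 33.2 CPM in Fgf8 cells and 20.9 CPM in cells without Fgf8 of dual-enSERT-2. Elk3 had 50.5 CPM in Fgf8 cells and 26.4 CPM in cells without Fgf8 of dual-enSERT-1, and 22.5 CPM in Fgf8 cells and 13.8 CPM in cells without Fgf8 of dual-enSERT-2, where its ratio of 1.64 had an interval of 0.979 to 2.77.

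These 3 genes of the 7 measured were past the fold in both libraries, Ets1 and Erg being under 5 CPM, which 28.4% of all measured genes of dual-enSERT-1 and 28.6% of those of dual-enSERT-2 passed. Under the alternative settings Etv1 stayed past the fold in both libraries, with log2 ratios between -1.16 and -0.75 in dual-enSERT-1 and between -1.61 and -0.90 in dual-enSERT-2. Ets2 and Elk3 did not: with doublets kept, another random thinning, levels from the thinned UMIs or a pseudocount of 10 CPM, Etv1 alone passed in both, and the lowest log2 ratios over all settings were 0.34 and 0.31 for Ets2 and 0.55 and 0.35 for Elk3 in dual-enSERT-1 and dual-enSERT-2. The 8 mesenchyme markers, all of them detected, summed to 676 CPM in Fgf8 cells and 168 CPM in cells without Fgf8 of dual-enSERT-1, and to 608 CPM in Fgf8 cells and 84.7 CPM in cells without Fgf8 of dual-enSERT-2. Elk3 and Ets2 are higher and Etv1 is lower in mesenchyme-like than in ectoderm-like cells, and the part of mesenchymal RNA in the 3 differences was not tested. Etv4 in dual-enSERT-1 was also higher, at 109 CPM in Fgf8 cells and 63.0 CPM in cells without Fgf8, but stood at 84.5 CPM in Fgf8 cells and 77.1 CPM in cells without Fgf8 of dual-enSERT-2. The FGF feedback genes Dusp6 and Spry4 were lower in Fgf8 cells of both libraries, Dusp6 at 25.8 CPM in Fgf8 cells and 54.9 CPM in cells without Fgf8 of dual-enSERT-1 and at 40.01 CPM in Fgf8 cells and 70.5 CPM in cells without Fgf8 of dual-enSERT-2. The FGF response list did not run 1 way: in dual-enSERT-1, 2 of its 12 measured genes were higher and 4 lower past the fold. Of all measured genes there, 14.1% were higher and 14.2% lower. The median log2 ratio was 0.07 over the list and -0.03 over all measured genes.

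**Figure D3:**
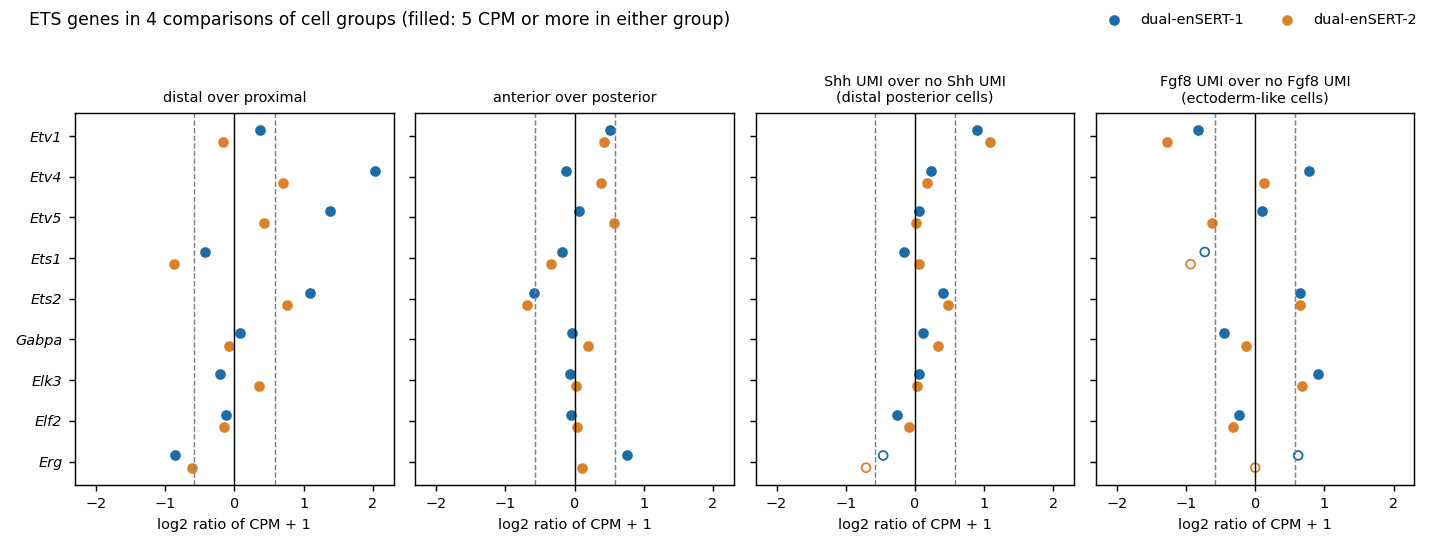
Log2 ratio of pooled CPM + 1 for the 9 ETS genes in 4 comparisons of cell groups, 1 point per library, with dashed lines at a log2 ratio of 0.58 in either direction and open points where both groups are under 5 CPM. Etv4 and Ets2 lie to the right in both libraries for distal over proximal cells, Ets2 to the left for anterior over posterior cells, Etv1 to the right for Shh cells and to the left for Fgf8 cells.

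The question set by the 2 reporters is whether cells with eGFP UMIs alone hold other levels of ETS factors than cells with mCherry UMIs. Mesenchyme-like cells with an eGFP UMI and no mCherry UMI at 5000 UMIs (eGFP-alone cells) and cells with an mCherry UMI numbered 2751 and 1273 in dual-enSERT-1, against 261 and 267 in dual-enSERT-2. None of the ETS genes, of which dual-enSERT-1 measured 9 and dual-enSERT-2 measured 8, passed the fold between them in either library, while 1.3% of all measured genes of dual-enSERT-1 and 1.51% of those of dual-enSERT-2 did. Their log2 ratios lay between -0.33 and 0.45. A cell without an mCherry UMI at this depth is not shown to lack mCherry, and mCherry cells were taken with or without an eGFP UMI. The groups therefore do not separate activity of the variant ZRS from that of the reference ZRS.

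Reporter UMIs in other cell classes limit what an eGFP UMI says of a cell. Of mesenchyme-like cells of dual-enSERT-1, 26.0% held an eGFP UMI, against 15.9% of its erythroid-like and 15.1% of its endothelial-like cells at the same 5000 UMIs, so an eGFP UMI there does not by itself mark a cell as expressing the reporter. In dual-enSERT-2 the shares were 8.15% of mesenchyme-like, 1.35% of erythroid-like and 7.04% of endothelial-like cells. For mCherry they were 9.69% of mesenchyme-like and 2.86% of erythroid-like cells in dual-enSERT-1, and 6.53% of mesenchyme-like and 1.16% of erythroid-like cells in dual-enSERT-2. An mCherry UMI was held by 31.0% of macrophage-like cells of dual-enSERT-1 and 30% of those of dual-enSERT-2. The source of reporter UMIs outside the mesenchyme-like cells was not tested. The full median depths of the mesenchyme- and erythroid-like cells were 13835 and 19408 UMIs in dual-enSERT-1 and 25568.5 and 27305 UMIs in dual-enSERT-2.

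Etv4 had 44.5 CPM (42.6 to 46.5) in eGFP-alone cells, 56.1 CPM (52.9 to 59.4) in mCherry cells and 27.8 CPM in cells with neither reporter of dual-enSERT-1. In dual-enSERT-2 it had 55.4 CPM in eGFP-alone cells, 60.6 CPM in mCherry cells and 48.8 CPM in cells with neither. Etv5 had 50.5 CPM in eGFP-alone cells, 58.4 CPM in mCherry cells and 37.6 CPM in cells with neither of dual-enSERT-1, and 72.6 CPM in eGFP-alone cells, 66.6 CPM in mCherry cells and 66.7 CPM in cells with neither of dual-enSERT-2. In dual-enSERT-1 the eGFP-alone cells lay between the mCherry cells and the cells with neither for both genes.

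Etv1 had 18.2 CPM in eGFP-alone and 22.6 CPM in mCherry cells of dual-enSERT-1, and 15.4 CPM in eGFP-alone and 13.4 CPM in mCherry cells of dual-enSERT-2. Ets2 had 92.3 CPM in eGFP-alone and 113 CPM in mCherry cells of dual-enSERT-1, and 128 CPM in eGFP-alone and 135 CPM in mCherry cells of dual-enSERT-2. Ets1 was higher in eGFP-alone cells, with 30.8 CPM there and 26.1 CPM in mCherry cells of dual-enSERT-1, a ratio of 1.18 (1.07 to 1.30), and 24.02 CPM in eGFP-alone and 19.0 CPM in mCherry cells of dual-enSERT-2, a ratio of 1.26 (1.01 to 1.58). Gabpa had ratios of 0.958 (0.868 to 1.06) and 1.05 (0.870 to 1.27), and Elk3 and Elf2 stayed within a log2 ratio of 0.07 in size. Erg had 5.93 CPM in eGFP-alone and 4.06 CPM in mCherry cells of dual-enSERT-1, and 3.56 CPM in eGFP-alone and 3.58 CPM in mCherry cells of dual-enSERT-2.

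The reporter groups differed in position: 47.8% of eGFP-alone and 61.4% of mCherry cells of dual-enSERT-1 were distal, and 24.5% of eGFP-alone and 33.7% of mCherry cells of dual-enSERT-2. Within distal cells the log2 ratio of Etv4 was -0.08 in dual-enSERT-1, against one of -0.24 in dual-enSERT-2. That of Ets1 was 0.19 in dual-enSERT-1, against one of -0.24 in dual-enSERT-2, where it rests on 30 UMIs of eGFP-alone and 53 of mCherry cells. None of the 8 measured genes passed the fold within distal cells, where 1.43% and 9.37% of all measured genes did. Among cells that are not distal, Etv4 of dual-enSERT-1 passed it, at a log2 ratio of -0.60 against 0.01 in dual-enSERT-2, with 1.26% and 2.63% of all measured genes past it.

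Against cells with neither reporter, mCherry cells were higher in Etv4 and Ets2 and lower in Ets1 in both libraries. The log2 ratios of mCherry cells over cells with neither were 0.99 for Etv4, 0.62 for Ets2 and -0.49 for Ets1 in dual-enSERT-1, and 0.31 for Etv4, 0.51 for Ets2 and -0.70 for Ets1 in dual-enSERT-2. Past the fold were Etv4, Etv5, Ets2 (higher) and Erg (lower) in dual-enSERT-1, where 6.03% of all measured genes were, and Ets1 alone (lower) in dual-enSERT-2, where 2.81% were. Etv4, Ets2 and Ets1 had the same signs in the distal over proximal comparison, and 61.4% of mCherry cells and 24.3% of cells with neither were distal in dual-enSERT-1, against 33.7% and 14.2% in dual-enSERT-2. The part of position in these differences was not tested. Shh itself had 6.60 CPM in eGFP-alone and 48.5 CPM in mCherry cells of dual-enSERT-1 and 23.4 CPM in eGFP-alone and 50.7 CPM in mCherry cells of dual-enSERT-2.

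Anterior cells are where a gain of ZRS activity is looked for. Among anterior cells, 127 with an eGFP UMI and 549 without were found in dual-enSERT-1, and 13 with one and 263 without in dual-enSERT-2. As given above, an eGFP UMI in dual-enSERT-1 does not by itself mark a cell as expressing the reporter. These groups are thus split by UMI and not by activity of the variant ZRS. None of the 9 genes passed the fold in dual-enSERT-1, where 4.78% of all measured genes did. Etv4 had 36.9 CPM in anterior eGFP cells and 33.9 CPM in anterior cells without eGFP, Etv5 43.5 CPM in eGFP cells and 47.6 CPM in cells without, Ets1 29.3 CPM in eGFP cells and 31.2 CPM in cells without, and Gabpa 33.1 CPM in eGFP cells and 24.7 CPM in cells without, a ratio of 1.34 (1.01 to 1.77). Among those of dual-enSERT-2, Elf2 (log2 ratio 0.60, 54 and 542 UMIs) and Erg (log2 ratio -1.05, 1 and 39 UMIs) passed, where 21.9% of all measured genes did over these 13 cells. The ratios of the other 7 genes there had intervals that include 1.

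**Figure D4:**
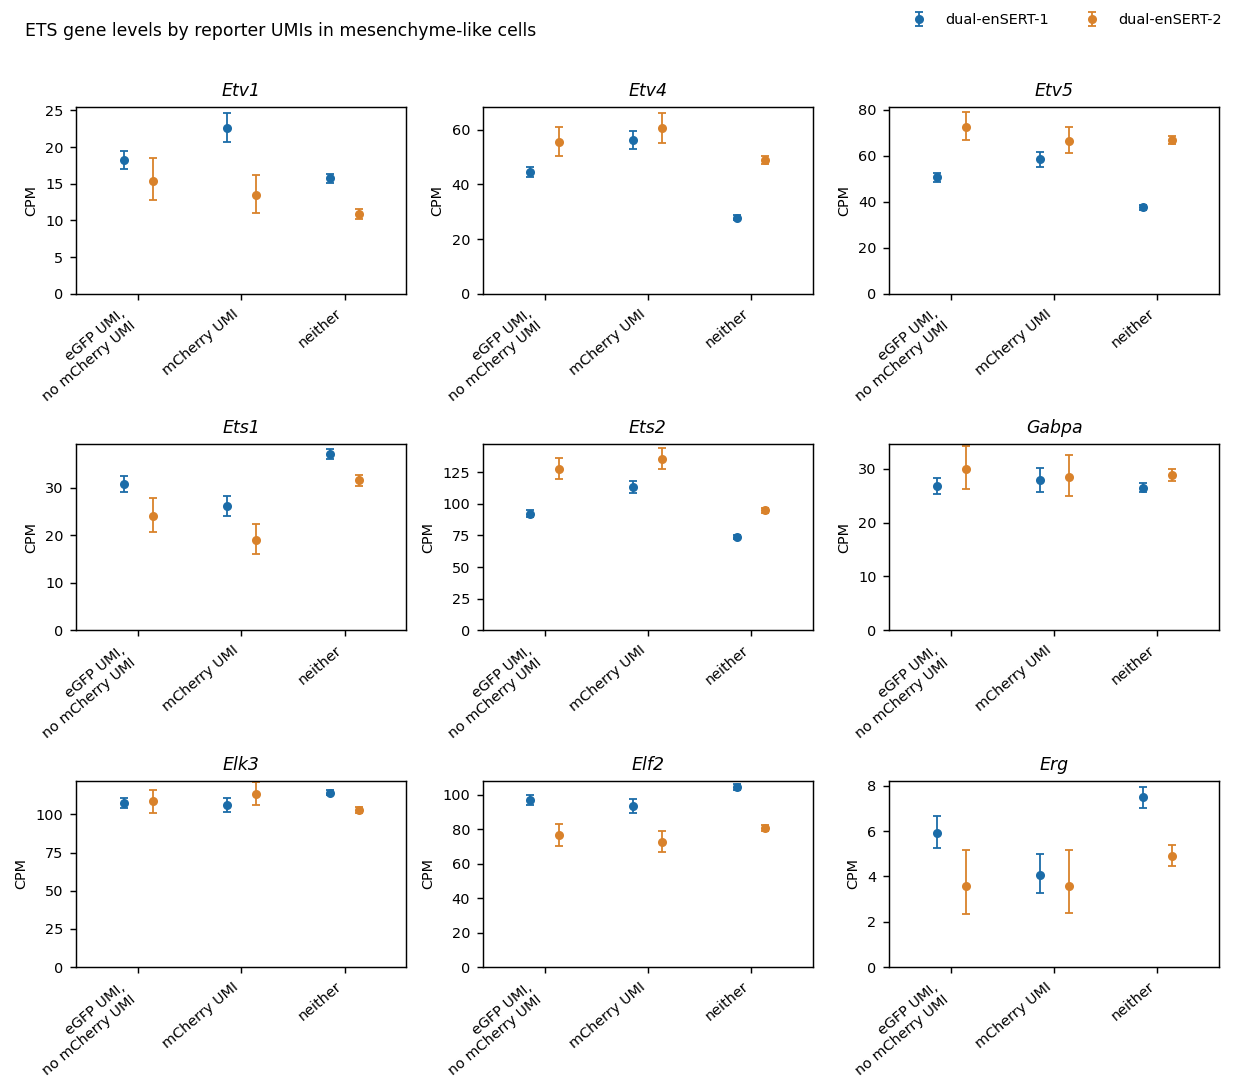
Pooled CPM of the 9 ETS genes in mesenchyme-like cells with an eGFP UMI and no mCherry UMI, with an mCherry UMI, and with neither, in each library, with exact 95% Poisson intervals for counting error. Etv4 of dual-enSERT-1 is at 44.5, 56.1 and 27.8 CPM in these groups and Gabpa at 26.7, 27.9 and 26.4 CPM.

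Between the embryos, whose construct and preparation cannot be told apart from the embryo, Etv5 was the 1 gene of the 9 past the fold in mesenchyme-like cells, at 42.4 CPM in dual-enSERT-1 and 67.0 CPM in dual-enSERT-2, where 11.1% of all measured genes passed. Etv4 had 34.5 CPM in dual-enSERT-1 and 50.1 CPM in dual-enSERT-2, and Etv1 16.8 CPM in dual-enSERT-1 and 11.3 CPM in dual-enSERT-2. Etv4 and Etv5 differed more between the libraries in proximal than in distal cells. Etv4 was at 13.3 CPM in proximal cells of dual-enSERT-1 and 38.1 CPM in those of dual-enSERT-2, against 57.3 CPM in distal cells of dual-enSERT-1 and 62.8 CPM in those of dual-enSERT-2, and Etv5 was at 24.2 CPM in proximal cells of dual-enSERT-1 and 55.0 CPM in those of dual-enSERT-2, against 64.6 CPM in distal cells of dual-enSERT-1 and 74.5 CPM in those of dual-enSERT-2. Across classes, muscle-like cells differed in 4 of the 9 genes past the fold (Etv4, Etv5, Ets1 and Elk3, all lower in dual-enSERT-1), where 18% of all measured genes passed, and endothelial-like cells in 0 of the 9, where 10.7% passed.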

How the data were processed

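Counts of UMIs per gene and barcode were deposited for 2 libraries, as whole numbers without normalization; Cell Ranger 7.0.1 is the release per the file headers, and Cell Ranger 3.1.0, with Seurat 4 and mm39, the one per the submitters' processing notes. Which of them made the counts was not settled, and no source used here gives the annotation, strand or intron settings. Kept barcodes had 1000 or more genes and no more than 10% of UMIs from mitochondrial genes, and Scrublet removed 1749 doublets (9.83%) from dual-enSERT-1 and 211 (3.16%) from dual-enSERT-2. Each library was clustered with Scanpy 1.11.5 (2000 variable genes, 30 components, 15 neighbours, resolution 1) without the reporters, Shh and all ETS genes, and a cluster was named where 3 or more of a class's markers stood 2-fold or more above the rest. Levels are CPM pooled over cells from all UMIs. Positions, reporters and Shh were read in cells thinned to 5000 UMIs, a depth reached by 89.8% of cells of dual-enSERT-1 and 93.6% of those of dual-enSERT-2. Intervals are exact Poisson and Clopper-Pearson at 95%, and the floor for a count of 0 is 3 counts. The code was tested on simulated data. The ETS genes, lists and comparisons were chosen with earlier results of these data known. Always named are the 9 ETS genes, the reporters and Shh; list genes are named where past the fold in both libraries. Some genes of the index are not reported here.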

Additional observations from a re-analysis of the deposited data

Results flagged for a closer look

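Ets1 in muscle-like cells ran in opposite directions in the libraries: its log2 ratio over mesenchyme-like cells was -0.82 in dual-enSERT-1, against one of 1.98 in dual-enSERT-2. It had 19.0 CPM in muscle-like and 34.4 CPM in mesenchyme-like cells of dual-enSERT-1, and 122 CPM in muscle-like and 30.1 CPM in mesenchyme-like cells of dual-enSERT-2. The difference between the libraries was not tested, as each is 1 embryo. The muscle-like cells were not alike: at 5000 UMIs, 116 of 475 of those of dual-enSERT-1 and 1 of 68 of those of dual-enSERT-2 held a UMI of Myod1 or Myog, the genes of committed myoblasts. Among cells without one, chosen after seeing the data, Ets1 had 22.3 CPM (359 cells) in dual-enSERT-1 and 123 CPM (67 cells) in dual-enSERT-2, where 59 of the 67 held an Ets1 UMI at full depth. Pax3, a marker of muscle precursors, had 505 CPM in these cells of dual-enSERT-1 and 718 CPM in those of dual-enSERT-2. At full depth 82 of the 359 cells of dual-enSERT-1 and 1 of the 67 of dual-enSERT-2 held a Myod1 UMI, at 24.3 and 0.455 CPM. The groups without a UMI at 5000 UMIs were thus not matched in Myod1. The 10 endothelial markers summed to 20.2 CPM in muscle-like cells of dual-enSERT-1 and 24.2 CPM in those of dual-enSERT-2, against 4779 and 4467 CPM in endothelial-like cells.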

How the results depend on the processing

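In all, 21 alternative settings were run, and those that changed the minimum CPM gave counts only. Over the others, 788 of 794 recomputed values of ETS genes past the fold kept their sign. A change of the pseudocount cannot change a sign, so the values under such settings were bound to keep it. The count of ETS genes past the fold in both libraries was 3 for distal over proximal cells and 0 for the reporters. Over class comparisons the count was 20 pairs of a gene and a class, those of the erythroid-like class among them. In that class 91.1% of all measured genes of dual-enSERT-1 and 86.2% of those of dual-enSERT-2 were lower past the fold. Each of these counts stayed within 1.5 times under every setting run for it. For anterior over posterior cells the count of 1 became 0 with cells weighted equally, doublets kept, thinning to 2000 UMIs, no thinning, another random thinning, levels from the thinned UMIs or a pseudocount of 10 CPM, and 2 with an index of -2 or lower and 2 or higher. For anterior eGFP cells 0 became 1 at 2000 UMIs or with 2 UMIs required. For Shh cells 1 became 2 without thinning and 0 with levels from the thinned UMIs. For Fgf8 cells 3 became 1 with doublets kept, another thinning, thinned levels or a pseudocount of 10 CPM. Between libraries 1 became 2 with cells weighted equally or doublets kept, and 0 with a pseudocount of 10 CPM. The 6 reversed values were Elf2 in erythroid-like cells of dual-enSERT-1 (0.36 without globin and mitochondrial genes in the total, which moves the median of all genes by 1.46), Elf2 in anterior eGFP cells of dual-enSERT-2 (-0.50 at 2000 UMIs, -0.084 without thinning, -1.67 with 2 UMIs required), Erg there (0.14 without thinning) and Ets1 in muscle-like cells of dual-enSERT-2 (-0.078 in the 1 cell with a Myod1 or Myog UMI). The other causes were not tested. Except between libraries, both cell groups of a comparison lie in the same library. With 1 embryo of each genotype, no paired test was run.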
